A study of Pimephales promelas with 16 samples.

Results

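Linuron was compared with control in ovary explants of the fathead minnow, Pimephales promelas, a small freshwater fish used in toxicology. Explants are pieces of ovary kept in culture. The comparison took the 4 arrays labelled LIN and the 4 labelled control out of the 16 one-colour Agilent arrays of the study, and its probes are the 15208 gene probes of the array. LIN explants were incubated for 12 h with LIN at 1e-06 M, and control explants for 12 h without a stated agent or carrier. The other 8 arrays held 4 explant samples with flutamide and 4 with DHT, both at 1e-06 M for 12 h. All samples were total RNA from ovaries of females with no genetic change named in the labels. LIN is read as linuron, which the study's title names. Which fish gave which explant is not in the labels, and the spread behind each p-value may in part be technical.

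Linuron is a urea herbicide. It binds the androgen receptor of mammals and blocks it, as the drug flutamide does, and is therefore studied as an anti-androgen. The androgen receptor is a transcription factor that testosterone and dihydrotestosterone (DHT) switch on, and the ovary both makes androgens and turns them into estrogens in the follicle cells around the egg. An explant keeps oocytes, follicle cells and connective tissue together, and it is separated from the pituitary hormones that drive the ovary in the fish.

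A probe has an identifier and the name of the sequence it was designed on, and no gene symbol. Of 14499 sequence names, 0 matched the table of RefSeq genes. Genes of steroid synthesis, hormone receptors and markers of oocytes and follicle cells could therefore not be looked up, and the labelled tissue was not checked against markers. Probe sequences were not used here. In RNA from whole tissue, fewer cells of a type and less RNA per cell cannot be told apart.

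Array quality overlapped between the groups but differed within the numbers. In LIN arrays 82.9% to 87.8% of probes were well above background, against 81.0% to 86.6% in control arrays, and the means were 86.1% ± 2.22 and 83.6% ± 2.82 (SD, n = 4 each; two-sided exact permutation p = 0.200, adjusted 0.429 over 3 array measures). The smallest p that 4 arrays against 4 can give is 0.0286. LIN arrays had a 75th percentile signal of 1513 to 3066 and control arrays of 1096 to 3418 (two-sided exact permutation p on the log2 scale = 0.971, adjusted 0.971). The third measure was the average median deviation from each probe's mean in the 3 dimmest of 5 equal brightness groups, minus that in the rest. It was -0.13 ± 0.36 in LIN and 0.14 ± 0.21 in control (SD, n = 4 each; two-sided exact permutation p = 0.286, adjusted 0.429). In numbers 3, 4 and 6 its LIN minus control was 0.21, 0.02 and -0.58. Between same-numbered arrays the share well above background and the 75th percentile signal each went one way. LIN minus control was 6.32, 1.2 and 5.11 percentage points of probes well above background in numbers 3, 4 and 6, and -0.81, -0.42 and -0.16 in the log2 75th percentile signal. So in all 3 numbers the LIN array was dimmer and had more probes well above background, which was not tested. Between the LIN and control means on a slide the log2 signal went the other way. LIN minus control was 0.56 on slide 1, which held 1 control array, and 0.08 on slide 3. The share well above background was still higher in LIN there, by 2.17 and 0.71 points. In numbers 3 and 4 the LIN and control arrays had different scan days, so compound and scan day cannot be told apart there. LIN arrays correlated with each other at r from 0.953 to 0.963 over probes, and control arrays at r from 0.936 to 0.960. LIN and control arrays of different number correlated at r from 0.932 to 0.960. A level below is log2 of the processed signal relative to the array's 75th percentile, and a difference is LIN minus control on that scale.

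The sample titles carry numbers, and LIN and control share the numbers 3, 4 and 6. Same-numbered arrays of different groups deviated together from their group means, so the number was used as a pairing. LIN 5 and control 1 have no partner in the other group. The numbers do not fall evenly on the glass: LIN 3 and LIN 4 lay on slide 1 with control 1, control 3 lay on slide 2, and LIN 5, LIN 6, control 4 and control 6 lay on slide 3. Every control array had position 1 in the second of the 2 position numbers in the file headers, while LIN 3, LIN 5 and LIN 6 had position 4 and LIN 4 had position 2. Among the LIN and control arrays that position and the compound cannot be told apart. DHT 4 also had position 1, and DHT 1, DHT 5 and DHT 6 had position 2.

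Control 6 had an area of low spots. On that array 52 of the 13146 probes kept for testing read more than 16-fold below the lowest of the other 15 arrays. These 52 spots spanned rows 172 to 192 and columns 76 to 82, a corner of an array with 192 rows and 82 columns, and 106 kept probes lay in it. The scanner software set 0 outlier flags there. The next highest count of such spots on an array was 6, on flutamide 6, and on the other LIN and control arrays it was 1 on LIN 6 and 0 elsewhere. None of the probes named below lies in that corner. With all spots 71 probes were past 4-fold higher in LIN, 32 of them in that corner, and 39 were without the corner spots of control 6.

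With LIN, 3 probes fell and 0 rose at an adjusted p below 0.05 among 13146 tested (limma, 0.0228% called). The fit was of 4 group means over all 16 arrays with no block. Both probes that fell most were designed on sequences named gi_73642462 and gi_73723972, and the other on contig FJU.12821.C1. What these sequences encode is not given in the files.

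The probe UF_Ppr_AF_117765, for gi_73642462, had levels of -6.69, -6.47, -6.88 and -7.33 in LIN explants 3, 4, 5 and 6, against -5.35, -4.23, -3.88 and -4.10 in control explants 1, 3, 4 and 6. All 4 LIN values lay below all 4 control values, and control 1 was the control value nearest to LIN. The means were -6.84 ± 0.37 in LIN and -4.39 ± 0.65 in control (SD, n = 4 each). The difference was -2.45 ± 0.33 (SE, limma adjusted p = 0.0331), a 5.47-fold decrease. Within the numbers 3, 4 and 6 the difference was -2.45, -2.59 and -3.23. This is a dim probe, in the dimmest of 5 equal groups by mean level. With normexp background correction its difference shrank to -1.04 (limma adjusted p = 1.00). That setting starts from the median spot and background signals in place of the processed signal, and adds an offset of 50 before the log. An added offset shrinks differences of dim probes, but which of these changes moved the call was not tested.

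The probe UF_Ppr_AF_107870, for gi_73723972, had levels of -1.02, -0.44, -1.57 and -1.98 in LIN explants 3, 4, 5 and 6, against 1.40, 0.44, 0.61 and 0.91 in control explants 1, 3, 4 and 6. The groups did not overlap, and LIN 4 and control 3 were the nearest values. The means were -1.25 ± 0.67 in LIN and 0.84 ± 0.42 in control (SD, n = 4 each), a difference of -2.09 ± 0.30 (SE, limma adjusted p = 0.0365), or a 4.26-fold decrease. It is one of the brighter probes, in brightness group 4 of 5. Its difference was -1.46, -1.05 and -2.89 in numbers 3, 4 and 6. With normexp the difference of the 4 arrays a group was -1.90 and did not pass (limma adjusted p = 0.217).

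The third probe, UF_Ppr_AF_103365, for FJU.12821.C1, is the remaining call and was named after its values were known. Its levels were -1.65, -1.53, -1.74 and -2.59 in LIN explants 3, 4, 5 and 6, against -0.44, -0.60, -0.43 and -0.26 in control explants 1, 3, 4 and 6. The control values were tight and the LIN values spread mainly through LIN 6. The difference was -1.45 ± 0.22 (SE, limma adjusted p = 0.0454), a 2.73-fold decrease, with -1.05, -1.10 and -2.34 in numbers 3, 4 and 6. With normexp it was -1.38 and did not pass (limma adjusted p = 0.438).

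These 3 calls depended on the fit. With the title number as a fixed block 0 probes passed (limma, 0%), where 854 probes were higher and 1174 lower with an unadjusted p below 0.05, and the adjusted p of the 3 probes was 0.0843, 0.136 and 0.103. With the number as a random block all 3 passed, at adjusted p of 0.00346, 0.00475 and 0.00440. Leaving out control 1 left 1 call, leaving out LIN 4 gave 81, and leaving out any other LIN or control array gave 0. Within slide 1, which held 1 control array, the differences were -1.23, -2.13 and -1.16, and within slide 3 they were -3.11, -2.53 and -1.82. The fit within slide 1 rests on its single control array, so its 0 calls say nothing of these probes.

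**Figure D1:**
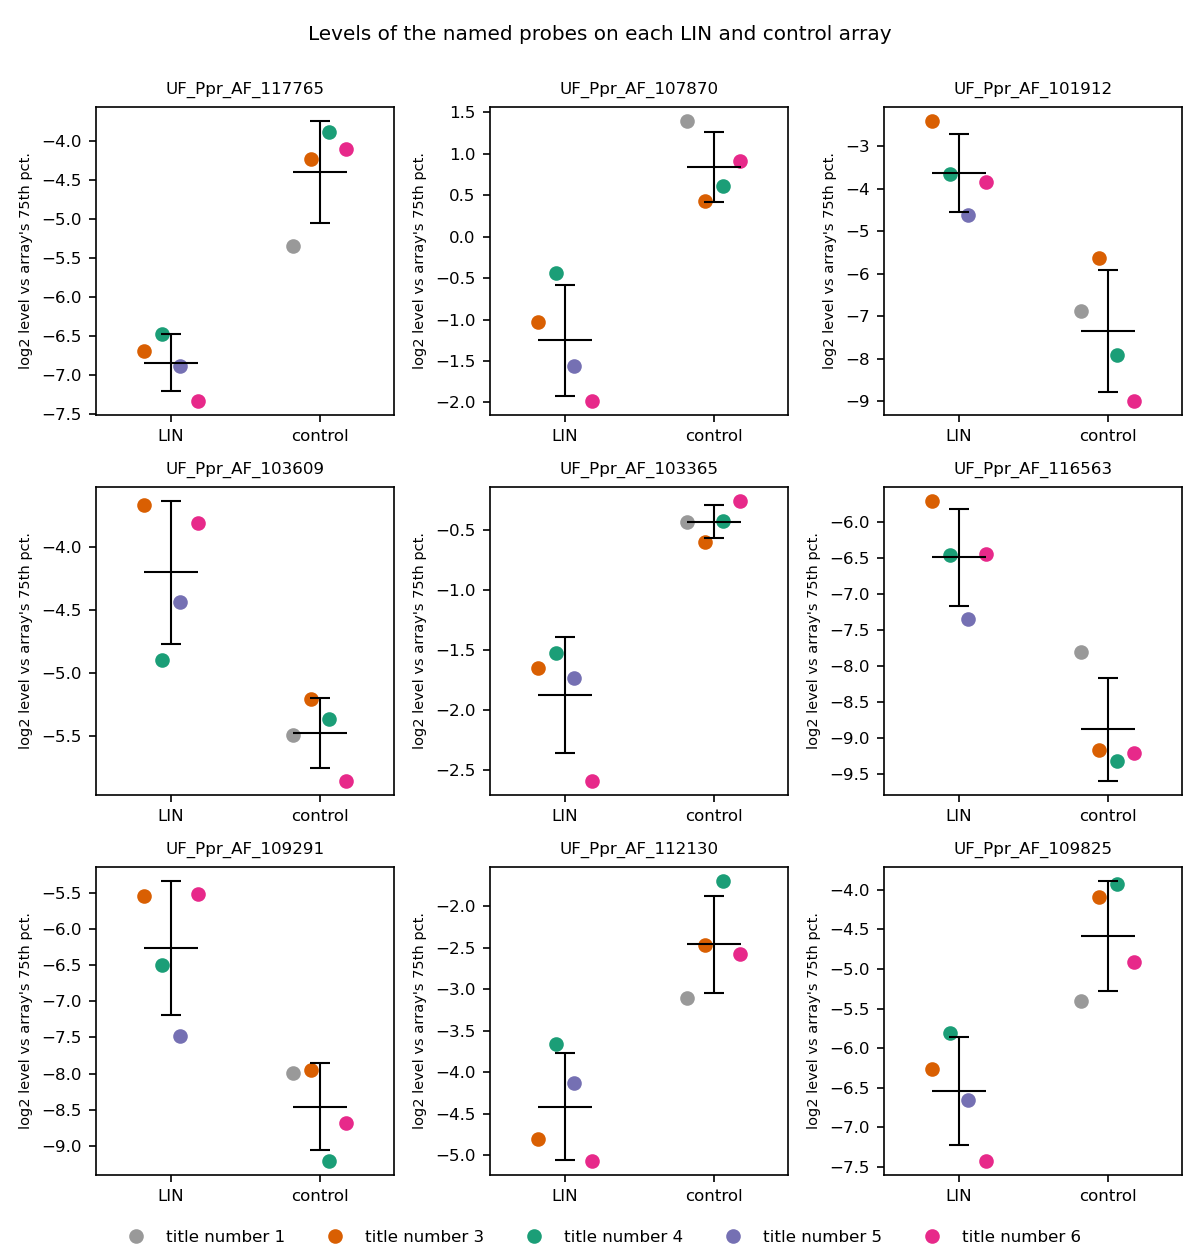
Levels of the 9 named probes on each of the 4 LIN and 4 control arrays, in log2 relative to the array's 75th percentile; bars are the mean and SD, and colours mark the title number. For the 3 probes called without a block, UF_Ppr_AF_117765, UF_Ppr_AF_107870 and UF_Ppr_AF_103365, each LIN point lies below each control point.

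Among probes higher with LIN none passed without a block, and the 2 with the smallest p whose groups did not overlap are described here. UF_Ppr_AF_101912, for contig FJU.9244.C2, had levels of -2.39, -3.64, -4.61 and -3.83 in LIN explants 3, 4, 5 and 6, against -6.89, -5.62, -7.90 and -8.99 in control explants 1, 3, 4 and 6. It was well above background on all 4 LIN arrays and on 2 of 4 control arrays. The difference was 3.73 ± 0.70 (SE, limma adjusted p = 0.187), and 3.23, 4.26 and 5.16 in numbers 3, 4 and 6. With normexp background correction and its added offset it was 1.52 (limma adjusted p = 1.00). With the number as a random block it was 3.81 ± 0.45 and passed (limma adjusted p = 0.00352).

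The second, UF_Ppr_AF_103609 for FJU.12675.C2, had levels of -3.67, -4.89, -4.43 and -3.81 in LIN explants 3, 4, 5 and 6, against -5.49, -5.20, -5.36 and -5.85 in control explants 1, 3, 4 and 6. LIN 4 and control 3 were the nearest values. The difference was 1.27 ± 0.25 (SE, limma adjusted p = 0.195), and with the random block 1.23 ± 0.21 (limma adjusted p = 0.0248). With normexp and its added offset it was 0.78 (limma adjusted p = 1.00).

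What a title number marks is not stated. The comparison within the shared numbers 3, 4 and 6 set LIN against control in same-numbered arrays. It used 6 arrays with the number as a fixed block, leaving 2 residual degrees of freedom. No probe passed (limma, 0%), and the smallest adjusted p was 0.661. An unadjusted p below 0.05 was reached by 423 higher probes (3.22%) and 248 lower ones (1.89%). Together these were 671 of 13146 probes, about the share that a p below 0.05 gives where no probe differs. All 3 differences lay above 0 for 1759 of 13064 probes (13.5%) and below 0 for 2219 (17%).

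Past 2-fold in all 3 numbers were 75 probes higher (0.574%) and 12 lower (0.0919%). The last probe inside the limit had a smallest difference of 1.00 and the first outside 0.99 for higher probes, and -1.01 and -0.96 for lower ones. Of the 75, 41 were in the dimmest of the 5 brightness groups, 15 had been kept for testing through the LIN arrays alone, and 12 did not stand well above background in any control explant. Among all 13146 kept probes, 197 had been kept through the LIN arrays alone, and 69 did not stand well above background in any control explant. The median level of the 75 was -4.86 over LIN group means, -5.77 over flutamide, -5.77 over DHT and -6.37 over control. On single arrays that median was -3.78, -5.00, -5.51 and -4.84 for LIN 3, 4, 5 and 6, against -5.22, -6.77, -6.46 and -7.28 for control 1, 3, 4 and 6. The differences that chose these probes did not use LIN 5 and control 1, though the filter on background counted both arrays. LIN 5 and control 1 were closer to each other than the arrays that chose the probes.

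Set against control 1, LIN 5 was higher for 44 of the 75 probes (58.7%), with a median of 0.18, where 35.6% of all tested probes were higher. For the 12 lower probes LIN 5 was below control 1 in all 12, with a median of -1.28, where 64.4% of all probes were lower. Of these 12, 7 were in the dimmest brightness group, where LIN 5 minus control 1 had a median of -0.89 over all its probes. The shares of all probes are not matched in brightness to the chosen probes. LIN 5 and control 1 have different numbers and lie on different slides, so their difference also holds whatever separates the explants. The filter also counted LIN 5, and 15 of the 75 higher probes had been kept through the LIN arrays alone.

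The 2 higher probes with the smallest p in that fit had no measured control level and had been kept for testing through the LIN arrays alone, so their values are given as a description. UF_Ppr_AF_116563, for FJU.4366.C1, had levels of -5.70, -6.46, -7.35 and -6.44 in LIN explants 3, 4, 5 and 6, against -7.80, -9.16, -9.31 and -9.21 in control explants 1, 3, 4 and 6. All 4 LIN arrays and 0 control arrays were well above background, so the fold is a bound, at least 1.71-fold higher in LIN. It was set against the lowest signal well above background on each control array, or the probe's own signal where that was higher.

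The other, UF_Ppr_AF_109291 for FJU.12094.C1, had levels of -5.55, -6.50, -7.48 and -5.52 in LIN explants 3, 4, 5 and 6, against -8.00, -7.95, -9.20 and -8.69 in control explants 1, 3, 4 and 6. It was well above background on 3 of 4 LIN arrays and on 0 control arrays, and was at least 2.0-fold higher in LIN. Neither passed within the numbers (limma adjusted p = 0.661 for both). In both probes LIN 5 was the lowest LIN value.

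Among lower probes UF_Ppr_AF_117765, described above, had the smallest p in that fit (limma adjusted p = 0.661). The next 2 were well above background on all 8 arrays. UF_Ppr_AF_112130, for gi_73643778, had levels of -4.80, -3.66, -4.13 and -5.06 in LIN explants 3, 4, 5 and 6, against -3.11, -2.46, -1.69 and -2.57 in control explants 1, 3, 4 and 6. The groups did not overlap. The difference within the numbers was -2.27 ± 0.19 (SE, limma adjusted p = 0.661).

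The other lower probe, UF_Ppr_AF_109825 for FJU.8352.C1, had levels of -6.26, -5.81, -6.65 and -7.42 in LIN explants 3, 4, 5 and 6, against -5.40, -4.09, -3.93 and -4.91 in control explants 1, 3, 4 and 6. Its difference within the numbers was -2.19 ± 0.20 (SE, limma adjusted p = 0.666), and LIN 4 and control 1 were the nearest values. With normexp and its added offset the difference within the numbers was -0.89 (limma adjusted p = 0.816). With the random block both passed, at limma adjusted p of 0.0230 and 0.00475.

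The 3 numbers did not show the same profile. The SD of the difference over probes was 0.76 in number 3, 0.43 in number 4 and 1.05 in number 6. In number 3, 1240 probes were past 2-fold higher and 200 lower. In number 4 the counts were 225 higher and 157 lower, and in number 6 they were 596 higher and 2412 lower. Number 4 was the quietest and number 6 leaned to lower levels, with a median difference of -0.19. Without the low corner of control 6 the SD of number 6 was 0.86 and 509 probes were past 2-fold higher.

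Over 13064 probes the differences correlated at r = 0.33 between numbers 3 and 4, 0.14 between 3 and 6 and 0.14 between 4 and 6. Without the corner these were 0.33, 0.17 and 0.17. These 3 differences share no array, but probes are not independent replicates, and LIN 3 and LIN 4 share slide 1, which carries neither of their controls. Of the probes past 2-fold in both numbers, the direction was shared by 186 of 209 for numbers 3 and 4, by 355 of 532 for 3 and 6 and by 153 of 206 for 4 and 6.

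**Figure D2:**
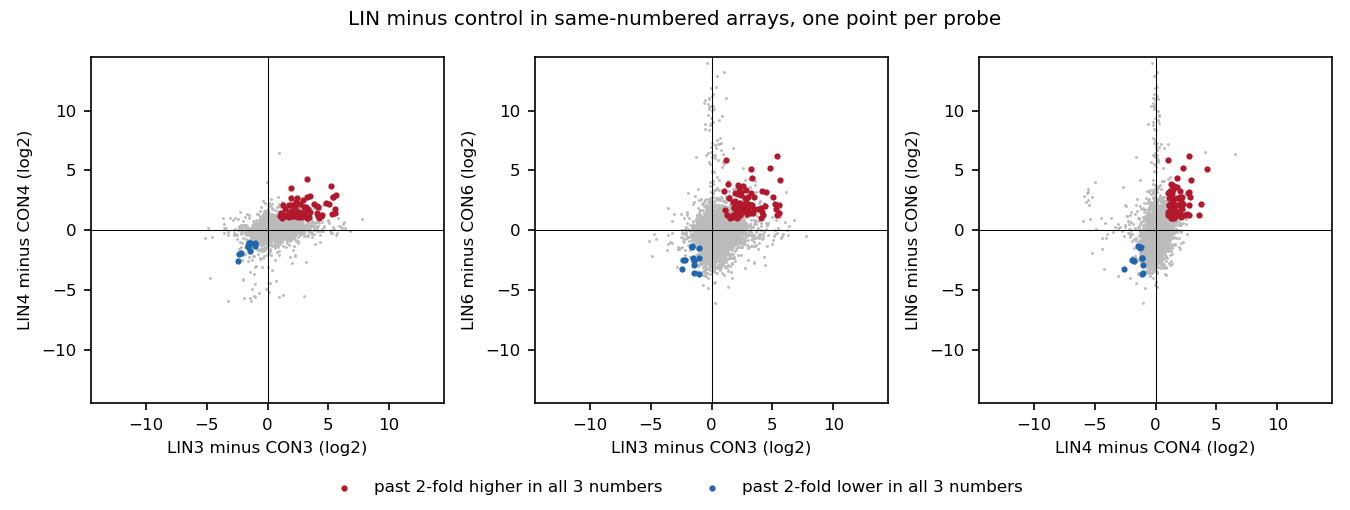
LIN minus control in log2 for 13064 probes, 1 title number against another, with the 75 probes past 2-fold higher in all 3 numbers in red and the 12 past 2-fold lower in blue. The vertical streak of LIN 6 minus control 6 up to 13.98 holds the spots of the low corner, where numbers 3 and 4 lie near 0.

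Higher probes recurred more than lower ones did in a number whose difference had not chosen them. Of 91 probes past 2-fold higher in numbers 4 and 6, 96.7% were higher in number 3, against 52.8% of all probes, with a median of 2.40. Of 290 chosen in 3 and 6, 81.4% were higher in number 4, against 52.8% of all, with a median of 0.48. Of 138 chosen in 3 and 4, 84.8% were higher in number 6, against 37.2% of all, with a median of 1.24.

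For probes past 2-fold lower the same reading gave less. Of 62 chosen in 4 and 6, 66.1% were lower in number 3, against 47.2% of all probes. Of 65 chosen in 3 and 6, 69.2% were lower in number 4, against 47.2%. Of 48 chosen in 3 and 4, 50% were lower in number 6, below the 62.8% of all probes there, with a median of 0.01. These shares are descriptions, since probes are not replicates. The 75 probes past 2-fold higher in all 3 numbers are in each of the higher sets, and the 12 lower ones in each of the lower sets. Of the 75, 41 were in the dimmest brightness group, and of the 12, 7 were. The shares of all probes are not matched in brightness to the chosen probes. In all 3 numbers the control array also had fewer probes well above background than the LIN array. The filter on background also counted the arrays of the number read. Of those 75, 15 had been kept through the LIN arrays alone, so part of the recurrence of higher probes may come from the filter, which was not tested.

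With the title number as a random block (estimated correlation 0.631) limma called 147 of 13146 probes (1.12%), 63 higher (0.479%) and 84 lower (0.639%). The differences of the 63 ran from 0.70 to 4.51 with a median of 1.64, and 52 were past 2-fold. Those of the 84 ran from -0.54 to -2.62 with a median of -1.07, and 46 were past 2-fold. All 63 and all 84 went the same way in all 3 numbers, whose arrays also chose them. For 40 of the 63 and 70 of the 84 the LIN and control values did not overlap. Over all probes LIN lay wholly above control for 157 of 13054 (1.2%) and wholly below for 339 (2.6%). Without a block the calls were 3 and with a fixed block 0.

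Of the 63 higher probes 7 had been kept through the LIN arrays alone, and of the 84 lower ones 1 through the control arrays alone. Among all 13146 kept probes these counts were 197 through the LIN arrays alone and 64 through the control arrays alone. The 63 higher probes included 24 in the dimmest brightness group and 6 in the brightest, and the 84 lower ones 17 and 1. Their median difference in numbers 3, 4 and 6 was 2.24, 1.18 and 1.74 for the higher probes and -0.66, -0.58 and -1.69 for the lower. The count rests on few arrays: it was 12 without LIN 6, 13 without control 6, 30 without control 4, 31 without LIN 3, 35 without control 1, 62 without LIN 5, 344 without control 3 and 1224 without LIN 4. With the 8 LIN and control arrays alone it was 0 (limma, with 505 probes higher and 889 lower by unadjusted p).

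**Figure D3:**
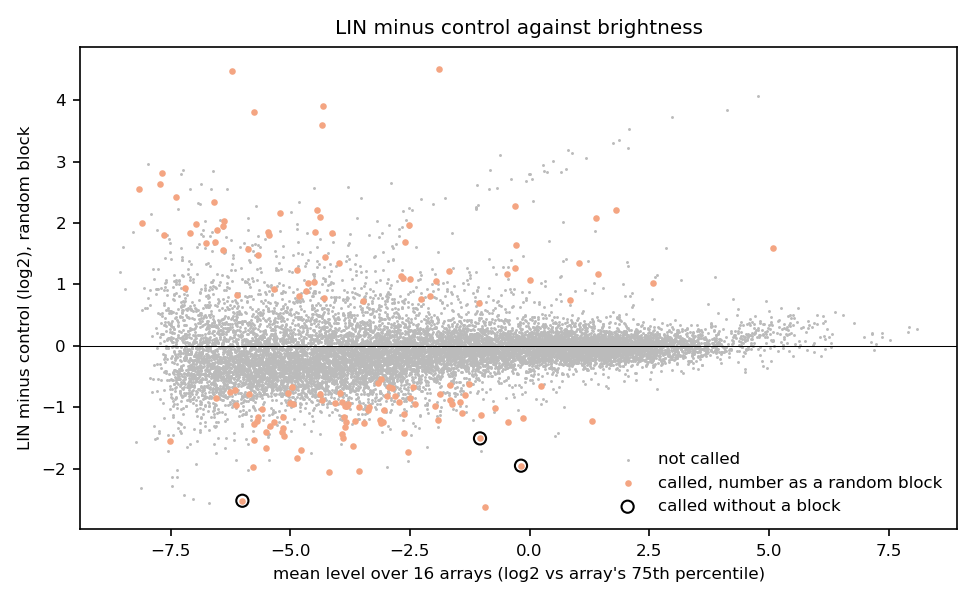
LIN minus control in log2, from the fit with the title number as a random block, against the mean level over 16 arrays for 13146 probes; 147 called probes are orange and the 3 called without a block are circled. The rising grey line of probes not called, between differences of about 2 and 4, holds spots of the low corner of control 6.

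Without a block the differences below the adjusted threshold leaned to lower levels with LIN. There, 335 higher probes (2.55%) and 1033 lower ones (7.86%) reached an unadjusted p below 0.05, so 75.5% were lower. The share changed with the fit: with the number as a fixed block 57.9% were lower, and with it as a random block 66.6%. Within numbers 3, 4 and 6, with 423 higher and 248 lower, 37.0% were lower. The same 6 arrays without a block gave 36.2%, with 247 higher and 140 lower. The share on those arrays was therefore low with and without the pairing. Their counts were no more than about what a p below 0.05 gives where no probe differs. Over all arrays, the share without a block also depended on the scaling. Median scaling gave 50.3%, quantile normalization 59.3%, normexp 49.6% and spike-in centring 79.9%. In the authors' deposited table it was 60.8%. The median difference of all probes was -0.11, and 0.09 with median scaling. Lower is therefore relative to the 75th percentile.

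The lean was in the dimmer probes. In 5 equal groups from dimmest to brightest the median difference was -0.34, -0.32, -0.18, -0.02 and 0.01. Within number 3 it ran the other way, at 0.28 in the dimmest group and -0.05 in the brightest, and within number 4 it was 0.05 and -0.02. Within number 6 it was -0.70 and 0.03, and for LIN 5 minus control 1 it was -0.89 and 0.05. After quantile normalization the group medians over all arrays were -0.09 and -0.01.

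**Figure D4:**
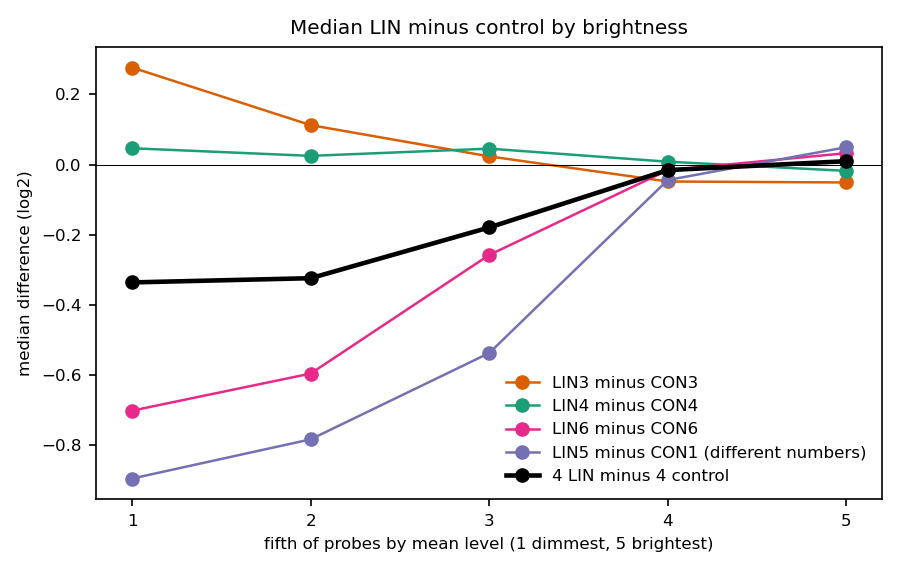
Median LIN minus control in log2 over probes in 5 equal groups by mean level, dimmest first, for each shared title number, for LIN 5 minus control 1 and for the 4 arrays a group. In the dimmest group the medians run from -0.89 for LIN 5 minus control 1 to 0.28 in number 3.

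The probes behind that lean differed most in number 6 and in LIN 5 minus control 1. The 1033 lower probes had a median difference of -0.23 in number 3, -0.21 in number 4, -1.37 in number 6 and -1.34 for LIN 5 minus control 1, and 633 of them (61.3%) were below 0 in all 3 numbers. The 335 higher probes had medians of 1.5, 0.39, 1.07 and 0.73 there, and 298 (89.0%) were above 0 in all 3 numbers. Over all probes 17% were below 0 and 13.5% above 0 in all 3 numbers. The arrays of those numbers also chose the 1033 and the 335, so their shares are high by that choice and are descriptions. LIN 5 and LIN 6 share slide 3 with control 4 and control 6, while control 1 is on slide 1. With slide as a fixed block 371 probes were higher and 2054 lower by unadjusted p (84.7% lower), with slide as a random block 80.0% were lower, and with scan day as a block 83.8%. Between the differences taken within slide 1 and within slide 3 the correlation was r = 0.15 over the kept probes that had both differences.

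The spread between arrays was also set side by side, with no test. The median SD over probes was 0.46 in LIN and 0.39 in control, and the LIN SD was the larger for 59.1% of 13146 probes. In the dimmest brightness group the medians were 0.72 in LIN and 0.60 in control, and in the brightest 0.24 in LIN and 0.22 in control.

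A few probes crossed the background limit between groups. Of the kept probes, 17 were well above background on 4 LIN arrays and 0 control arrays, and 41 on 3 LIN arrays and 0 control arrays. In the other direction 2 were well above background on 0 LIN arrays and 4 control arrays, and 7 on 0 LIN and 3 control arrays. On all 8 arrays 11381 probes were well above background. Over all probes a mean of 86.1% were well above background in LIN arrays and 83.6% in control arrays, with overlap between arrays. Of the 13146 kept probes, 197 had been kept through the LIN arrays alone and 64 through the control arrays alone. The filter kept a probe through whichever group measured it, so these counts describe the probes and carry no test.

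Some sequences have a second probe on the array. The array holds 710 such second probes, whose names carry AM in place of AF, and the files do not say how they were designed. In 329 cases both probes were kept. The LIN minus control differences of the 2 probes correlated at r = -0.04 over the 329 sequences. Of 22 sequences past 2-fold by the first probe, the second went the same way in 10, and of 44 at an unadjusted p below 0.05, in 24. Probes of contigs that share an FJU number, 2503 probes on 1135 numbers, correlated at r = 0.04 over the first 2 probes of each number. Whether such contigs come from a single gene is not given in the files.

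**Figure D5:**
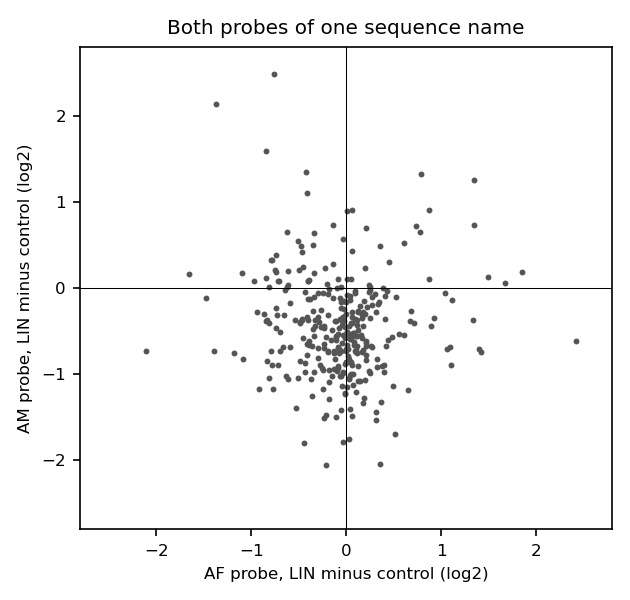
LIN minus control in log2 by the first probe (AF) and the second probe (AM) of the same sequence name, 1 point for each of 329 sequences. The points form a cloud without a slope (r = -0.04), and most second probes lie below 0.

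Probes on gi names and on FJU contigs differed in level and in how they leaned. Of 3309 gi probes 2429 were kept (73.4%), with a median level of -4.52 and a median difference of -0.25. Of 11899 FJU probes 10717 were kept (90.1%), with a median level of -1.87 and a median difference of -0.08. Of probes at an unadjusted p below 0.05, 84.2% were lower for gi names and 72.9% for FJU names. The gi probes are the dimmer ones, and their part in that lean beside brightness was not tested.

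The study's title asks what linuron shares with flutamide, so LIN was set against flutamide directly, without the control arrays in the difference. Linuron is a phenylurea and flutamide an anilide, and both were given at 1e-06 M for 12 h. No probe passed in that contrast (limma, 0% of 13146), with 66 probes higher and 64 lower by unadjusted p. With the random block the count was again 0 (236 higher and 581 lower by unadjusted p), and with the fixed block 0 (243 and 753). In the median the unadjusted 95% confidence interval extended 0.66 on the log2 scale on each side without a block, and 0.44 with the random block, so the absence of calls does not show that the compounds acted alike.

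For the 3 called probes LIN minus flutamide is given with its interval, as a description. These probes were chosen for low LIN values against control, and the same LIN arrays enter this difference, so that choice favours negative values. LIN minus flutamide was -0.04 (95% interval -0.74 to 0.66) for UF_Ppr_AF_117765 and -0.53 (-1.17 to 0.11) for UF_Ppr_AF_107870. For UF_Ppr_AF_103365 it was -0.53 (-1.0 to -0.07; limma adjusted p = 1.00). The flutamide levels were -6.81 ± 0.55, -0.72 ± 0.26 and -1.34 ± 0.20 (SD, n = 4). The LIN means were below these and the control means above. Flutamide minus control was -2.41, -1.56 and -0.91 without a block (limma adjusted p = 0.0394, 0.290 and 0.295), so UF_Ppr_AF_117765 passed with flutamide too. The same control arrays chose these probes, which favours negative values here as well.

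The higher probe UF_Ppr_AF_101912 stood apart more between the 2 compounds, but it was named for its high LIN values against control. The same LIN arrays enter LIN minus flutamide, so its size is favoured by that choice and is a description. Its mean level was -3.62 ± 0.92 in LIN and -5.77 ± 1.23 in flutamide (SD, n = 4 each). LIN minus flutamide was 2.15 ± 0.70 (SE, 95% interval 0.65 to 3.65), which did not pass (limma adjusted p = 1.00).

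Set against DHT, an androgen, LIN gave 0 calls without a block (limma, 0%), with 115 probes higher and 791 lower by unadjusted p. The random block gave 46 calls, of which 1 was higher and 45 were lower, and the fixed block 0 (336 and 1026 by unadjusted p). For LIN minus DHT no other scaling was tried and no array was left out, so how far these counts depend on them is not known. Of the 84 probes called lower against control with the random block, 33 were also called lower than DHT, and of the 63 called higher, 1 was. These contrasts share the LIN arrays, so the second is not separate from the first. UF_Ppr_AF_103365 was among the lower ones, at LIN minus DHT of -1.45 ± 0.19 (SE, limma adjusted p = 0.0127 with the random block), with a mean level of -1.88 ± 0.48 in LIN and -0.49 ± 0.24 in DHT (SD, n = 4 each). UF_Ppr_AF_107870 was too, at -1.59 ± 0.26 (limma adjusted p = 0.0210 with the random block). UF_Ppr_AF_117765 was not, at -1.05 ± 0.28 (SE, limma adjusted p = 0.126 with the random block), with a mean level of -6.84 ± 0.37 in LIN and -5.96 ± 0.22 in DHT (SD, n = 4 each), both below the control mean of -4.39 ± 0.65.

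The other compounds' own values for the same probes are given side by side with LIN, and all 3 comparisons use the same 4 control arrays. The 63 probes called higher had median differences of 1.64 for LIN minus control, 0.96 for flutamide minus control and 0.61 for DHT minus control. The 84 called lower had -1.07, -0.76 and -0.11. The LIN value is the one that chose them, so its being the farthest from 0 is no finding.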

How the data were processed

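Total RNA was labelled with Cy3, per the labels. The files are Agilent Feature Extraction 10.7.1.1 output, per the file headers, with an intensity per spot that the software background-subtracted and detrended. The authors also deposited a log2 table of the same arrays, whose columns track their own arrays (r at least 0.9995; column medians 7.62 to 7.65) and whose normalization and centring are not given in the sources used here. Levels were log2 intensity minus each array's log2 75th percentile over 15208 probes, with 185 outlier spots left out. A probe was kept when well above background on at least 3 of 4 arrays of a group (13146). 0 spots were saturated. Groups were fitted with limma 3.58.1 in R 4.3.3 (two-sided moderated test, Benjamini-Hochberg adjustment over kept probes) and tested on simulated data. All 16 same-numbered pairs of arrays correlated in their deviations from group means (r 0.354 to 0.772), which is where the pairing comes from; what a number marks is not stated. Named probes, at most 2 a direction, are the called ones with the largest difference, else those of smallest p without overlap; within the numbers, those of smallest p, not yet named, with 3 differences one way. Probes, sets and gene lists were chosen with earlier results of these data known; 0 gene or marker lists had a named probe. The number of arrays limits the precision.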

Additional observations from a re-analysis of the deposited data

Results flagged for a closer look

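In 24 groups of 4 values looked at (the LIN and the control levels of each named probe and 3 measures of the arrays), 1 held a value far from the others, and chance gives about 1 in 20 such groups. It is the control level of UF_Ppr_AF_116563, where control 1 read -7.80 against -9.16, -9.31 and -9.21 on control 3, 4 and 6. No control array was well above background for this probe, so these control levels lie below the measured range.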

How the results depend on the processing

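The count of 3 called probes (limma) stayed within 1.5 times with median scaling, a filter on all 16 arrays, no filter, the trended prior, scan day as a block and without the low corner of control 6. It was 8 with quantile normalization, 10 in the authors' deposited table, and 6 with slide as a fixed or a random block. It was 0 with spike-in centring, with normexp, within slide 1, within slide 3 and with the 8 LIN and control arrays alone (264 probes higher and 630 lower by unadjusted p). Pairing by the title number gave 147 calls as a random replicate block and 0 as a fixed replicate block. Leaving out 1 LIN or control array gave 0 to 81. The 3 probes were lower in all alternatives and called in 12 of 24, 12 of 25 and 10 of 25.

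Within numbers 3, 4 and 6 the count of 0 became 11 with median scaling (9 higher, 2 lower), 230 with spike-in centring (197 higher, 33 lower) and 1 with the trended prior. In that spike-in fit the probes named for this comparison all had the same SE of 0.49, against 0.19 to 0.22 in the main fit. Their p-values there followed the size of the difference alone, so the 230 is not an ordinary count. The count within numbers was 0 without any 1 number (limma; by unadjusted p, 201 higher and 258 lower without number 3, 398 and 127 without 4, and 536 and 333 without 6) and 0 with no replicate block on the same 6 arrays (247 and 140). LIN minus flutamide gave 0 calls in all 12 alternatives. The random-block count of 147 was 419 with median scaling, 471 with quantile normalization, 450 in the authors' table, 33 with spike-in centring, 0 with the 8 arrays, and 12 to 1224 without 1 array. It was 168 with normexp and 151 without the corner. The corner, the random-block alternatives and leaving out arrays for LIN minus flutamide were chosen after seeing the data. The causes of these moves were not tested. Dim probes near background have the least certain differences.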

Other observations

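A group of 26 probes, chosen because their level in LIN 4 was more than 8-fold below that in control 4, was bright on a few arrays and dim on the rest. The median level of the 26 was -5.70 on LIN 4 and -2.48 on LIN 3, against -1.32 on control 4 and -1.05 on control 3. On LIN 5 and LIN 6 it was -5.82 and -5.88, against -5.19 and -6.71 on control 1 and control 6. The flutamide arrays lay between -6.58 and -5.30 and the DHT arrays between -6.89 and -5.99. Control 3 and LIN 3 were each among the 3 highest of the 16 arrays for 18 of the 26 probes. Control 4 was for 25, but the choice of these probes favoured a high level there and a low one on LIN 4. Of the 26, 24 are on FJU contigs, and their spots lie between rows 13 and 192 of the array. None was called between LIN and control (limma adjusted p from 0.217 to 0.990).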
